A study of Mus musculus with 32 samples.

Results

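Dexamethasone plus lipopolysaccharide (LPS) was compared with LPS alone in Acod1 knockout (KO) mouse bone marrow-derived macrophages. The comparison used 8 of the 32 libraries of the series, those whose sample labels name this genotype and these treatments, with 4 libraries in each group. The KO dexamethasone plus LPS cells received 100 nM dexamethasone, a synthetic glucocorticoid, together with 100 ng LPS, a cell-wall component of Gram-negative bacteria, for 24 h. The KO LPS cells received 100 ng LPS alone for 24 h, and the labels give no volume for that dose. Marrow came from femurs and tibias of mice 8 to 12 weeks old, on a background labelled C57BL/6J, and was grown into macrophages with supernatant of L929 cells as the source of M-CSF. All the compared cells are labelled as knockouts of Acod1, also called Irg1, and the labels do not describe the deletion itself. Another 8 libraries, 4 of wild-type (WT) macrophages with both agents and 4 with LPS alone, were used to test whether the effect differed by genotype. For the level of Fkbp5 without LPS, libraries of KO and WT cells given 100 nM dexamethasone alone for 24 h were also used, 4 each. The labels do not say whether replicates were separate mice or cultures, so the p-values rest on a spread among libraries that may be technical. The comparison asks which part of the anti-inflammatory action of a glucocorticoid on LPS-treated macrophages is seen in cells labelled Acod1 knockout.

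Glucocorticoids enter the cell and bind the glucocorticoid receptor, which is held by heat-shock protein chaperones until the hormone arrives. The bound receptor moves into the nucleus, switches on genes that carry its response element, and lowers many inflammatory genes that LPS induces through Toll-like receptor 4, NF-kappaB and interferon signalling. LPS also shifts macrophages towards glycolysis and induces Acod1, the mitochondrial enzyme that turns the TCA cycle intermediate cis-aconitate into itaconate, a metabolite with anti-inflammatory properties.

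The 8 libraries held 18232013 to 24032980 counts, and 14427 genes had enough counts to be tested. Levels are in CPM, the library's counts scaled to a common total, and differences are log2 fold changes ± standard error (SE) from edgeR's quasi-likelihood test, with p-values adjusted by the Benjamini-Hochberg method over all 14427 genes and genes called at an adjusted p under 0.05. The first principal component held 51.6% of the variance of the 8 libraries and separated the 2 groups. All 8 were sequenced in the same lane. The summed level of 14 macrophage markers was 23000 to 23500 CPM in KO dexamethasone plus LPS libraries and 18900 to 20000 CPM in KO LPS libraries, with none of the markers at 0, so the labelled cell type held. Lyz2 was the highest, at a mean of 11700 and 7650 CPM in the same order of groups. Of the 14 markers 5 were called higher, 5 lower and 4 not called, beside 20.8% higher and 17.3% lower over all genes. Each list count below stands beside these same shares, and a count near them is not a result about its list. Other cell types were near the limit of detection or low. The 13 neutrophil markers summed to 93 to 103 CPM with dexamethasone plus LPS and 115 to 126 CPM with LPS, with Csf3r the highest and Ngp, Retnlg and Cxcr2 at 0 in both groups. The 8 B cell markers summed to 1.14 to 1.75 CPM and 0.523 to 1.11 CPM in the same order of groups, and the fibroblast and stromal markers to 21.2 to 25.3 CPM and 14.2 to 17.8 CPM, with Pdgfrb the highest. Their part in the results below was not tested.

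Acod1 itself was read in every KO library. It had 4119, 4034, 3908 and 3670 CPM in KO dexamethasone plus LPS libraries, against 4898, 4914, 4979 and 5187 CPM in KO LPS libraries. The groups did not overlap, and each KO dexamethasone plus LPS library was lower (log2 fold change -0.34 ± 0.04, adjusted p = 7.43e-10). The table counts all exons of the gene together and the deleted part is not given, so these reads do not check the knockout. With both agents Acod1 averaged 3933 CPM in KO cells and 2738 CPM in WT cells, and with LPS alone 4995 CPM in KO cells and 6483 CPM in WT cells, so KO lay above WT with both agents and below WT with LPS.

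The glucocorticoid receptor and its best known targets responded in the KO cells. Nr3c1, which encodes the receptor, had 162, 162, 163 and 165 CPM with dexamethasone plus LPS, against 132, 129, 132 and 119 CPM with LPS. The receptor transcript was higher in each KO dexamethasone plus LPS library (log2 fold change 0.35 ± 0.05, adjusted p = 9.45e-09). Fkbp5, which encodes an immunophilin that dampens the receptor and is a standard readout of its activity, had 265, 228, 257 and 299 CPM with dexamethasone plus LPS, against 11.9, 8.41, 10.3 and 10.2 CPM with LPS. The groups were far apart, and the rise was 4.68 ± 0.07 on the log2 scale (adjusted p = 1.07e-43). Tns1, a focal adhesion protein, had 245, 215, 243 and 302 CPM with both agents, against 3.75, 4.08, 3.78 and 3.67 CPM with LPS. All KO LPS libraries lay close together at the bottom of the range, and the log2 fold change was 6.04 ± 0.09 (adjusted p = 1.72e-44). Zbtb16, a zinc finger transcription factor induced by glucocorticoids in many tissues, had 12.98, 9.93, 13.05 and 14.66 CPM, against 0.0521, 0.0504, 0 and 0.0602 CPM with LPS. It was almost unread with LPS alone, and the ratio of counts was 313.2 (95% interval 107 to 1520, counting error only). Sult1a1, a sulfotransferase, rose by 7.31 ± 0.18 on the log2 scale and was likewise near 0 with LPS alone.

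Of the 21 glucocorticoid receptor targets listed, 20 passed the filter, 13 were higher with dexamethasone plus LPS, 3 were lower and 4 were not called. Over all genes tested 38.1% were called, 20.8% higher and 17.3% lower. The median log2 fold change of the list was 0.68, beside -0.002 over all genes. Tsc22d3, which encodes the anti-inflammatory leucine zipper protein GILZ, had 59.5, 51.4, 62.9 and 65.6 CPM with dexamethasone plus LPS, against 21.2, 19.7, 20.2 and 20.2 CPM with LPS, again without overlap. Its log2 fold change was 1.55 ± 0.08 (adjusted p = 4.56e-22). Dusp1, the phosphatase that switches off p38 and JNK kinases, rose by 0.67 ± 0.07 on the log2 scale, the clock gene Per1 by 0.69 ± 0.05, the transcription factor Klf9 by 1.56 ± 0.07 and the iron-scavenging protein Lcn2 by 1.94 ± 0.04. Errfi1, an inhibitor of EGF receptor signalling, and Tgm2, a transglutaminase, were the largest called falls in the list, at -0.44 ± 0.09 and -0.42 ± 0.07. The libraries of the 2 groups overlapped for Errfi1. Among the receptor and its 12 chaperones and cofactors, 3 were higher, 2 lower and 8 not called. The chaperone gene Hsp90aa1 fell (-0.38 ± 0.03), while the co-chaperone gene Fkbp4 and the chaperone gene Hspa8 rose by 0.62 ± 0.05 and 0.53 ± 0.04.

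**Figure D1:**
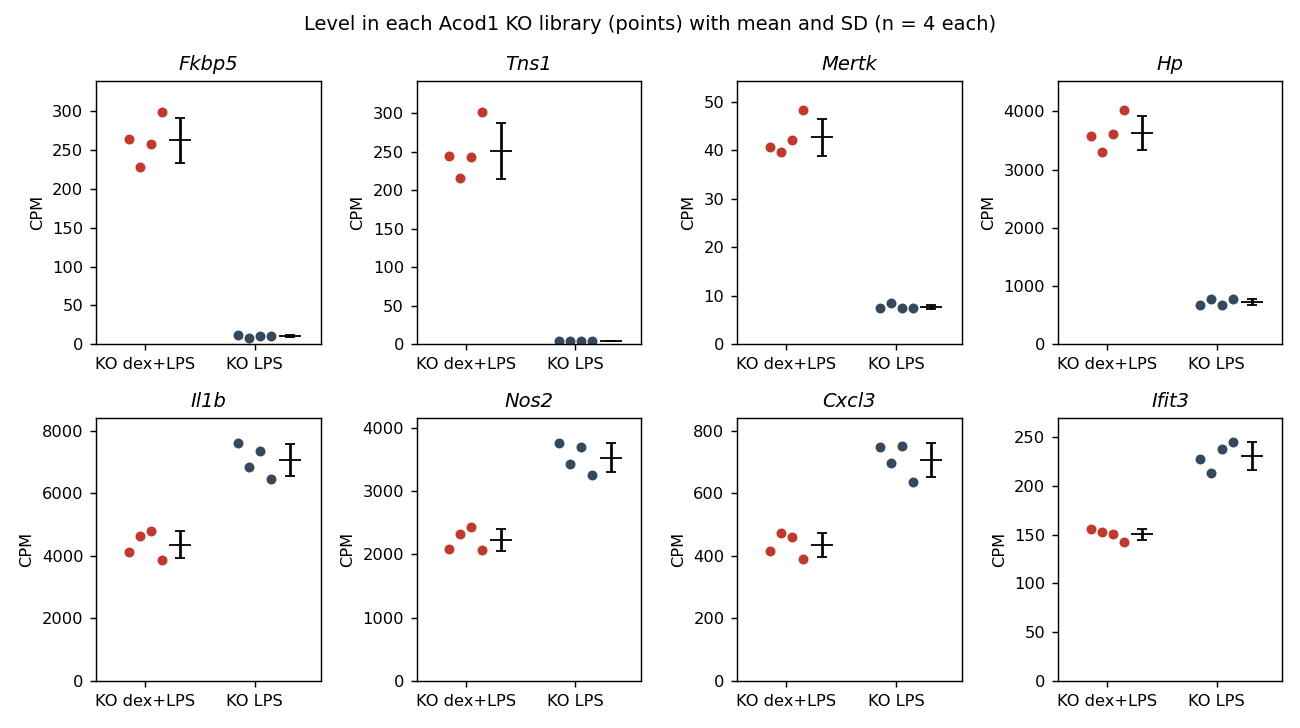
CPM of 8 genes in each KO library (points), with the mean and SD of 4 libraries beside them, KO dexamethasone plus LPS on the left and KO LPS on the right of each panel, on linear axes from 0. Fkbp5, Tns1, Mertk and Hp were higher in each dexamethasone plus LPS library, and Il1b, Nos2, Cxcl3 and Ifit3 were lower in each.

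The palindromic glucocorticoid response element, searched as GNACANNNTGTNC, which reads the same on both strands, was found in 156 of 32851 RefSeq promoter windows (GRCm38.p6, 250 bases before to 50 after a gene's start), or 0.475%. Of the 20 receptor targets, 16 had a window, some more than 1. Of their 25 windows 2 (8.0%), of Mt1 and Sgk1, held the element. The sequences around these elements are shown because their letters match the receptor's consensus and both genes rose. Capitals mark the match, which begins 188 bases before 1 of several annotated starts of Sgk1 (chr10:21993694-21993723, plus strand). In Mt1 it begins 94 bases before the start (chr8:94178987-94179016, plus strand). The windows of the other Sgk1 starts held no match, and counts per gene do not tell its starts apart.
Sgk1: tgcggaaaGAACAGAATGTTCtcggagatt
Mt1: cactatagGGACATGATGTTCcacacgtca
Sgk1, a kinase gene, had 315, 320, 316 and 311 CPM with dexamethasone plus LPS, against 283, 293, 272 and 283 CPM with LPS. Its change was small but without overlap (log2 fold change 0.16 ± 0.04, adjusted p = 0.000613). The metallothionein gene Mt1 rose by 0.33 ± 0.05. The Fkbp5 window (chr17:28486100-28486399, minus strand) is shown because the gene is the standard readout. It held no match, which says only that these letters are not in this window.
Fkbp5: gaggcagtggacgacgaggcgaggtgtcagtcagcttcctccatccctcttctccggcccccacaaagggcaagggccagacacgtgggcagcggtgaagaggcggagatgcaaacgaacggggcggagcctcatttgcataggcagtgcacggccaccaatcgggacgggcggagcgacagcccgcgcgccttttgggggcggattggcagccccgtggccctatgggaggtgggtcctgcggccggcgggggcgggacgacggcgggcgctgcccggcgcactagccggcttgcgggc

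Inflammatory cytokine transcripts fell in the KO cells, but by a moderate amount. Il1b, which encodes interleukin-1 beta, had 4118, 4639, 4814 and 3875 CPM with dexamethasone plus LPS, against 7614, 6836, 7362 and 6477 CPM with LPS. The highest dexamethasone library was still well below the lowest LPS library, and the log2 fold change was -0.70 ± 0.06 (adjusted p = 5.71e-15). Il6, which encodes interleukin-6, had 31.4, 32.3, 30.3 and 25.1 CPM, against 51.6, 41.2, 44.5 and 43.5 CPM with LPS. The groups did not overlap (log2 fold change -0.60 ± 0.08, adjusted p = 2.33e-08). Tnf, the early mediator of the LPS response, had 199, 196, 175 and 169 CPM, against 220, 236, 222 and 250 CPM with LPS, a smaller fall of -0.33 ± 0.06 without overlap (adjusted p = 1.46e-05). Of 17 cytokines that passed the filter, 12 were lower, 1 was higher and 4 were not called, with a median log2 fold change of -0.52. Il1a (-0.64 ± 0.06), the receptor antagonist Il1rn (-0.64 ± 0.05) and Il15 (-0.67 ± 0.06) fell by amounts close to that of Il1b. Il10, the anti-inflammatory cytokine, was at 0.428 ± 0.479 CPM with dexamethasone plus LPS and 0.630 ± 0.298 CPM with LPS (SD, n = 4 each), with overlapping libraries and an adjusted p of 0.345. The granulocyte growth factor Csf3 was the one called rise (0.42 ± 0.15, adjusted p = 0.0269), its libraries overlapped, and it was no longer called at an adjusted p under 0.01 or when KO LPS replicate 1 or 3 or KO dexamethasone plus LPS replicate 1, 3 or 4 was left out (adjusted p between 0.0534 and 0.157).

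Most CXC chemokines fell, while CC chemokines went both ways. Cxcl3 had 415.9, 473.2, 460.1 and 391.5 CPM with dexamethasone plus LPS, against 747, 697, 750 and 635 CPM with LPS. No library of one group reached the other (log2 fold change -0.70 ± 0.06, adjusted p = 1.66e-13). Cxcl1 and Cxcl2, its neighbours on chromosome 5 and ligands of the neutrophil receptor CXCR2, fell by -0.65 ± 0.07 and -0.56 ± 0.06 on the log2 scale. Of 11 CXC chemokines 8 were lower, none was higher and 3 were not called, with a median of -0.56. Of 12 CC chemokines 5 were lower, 3 higher and 4 not called, with a median of -0.29. The monocyte attractants Ccl2 (-0.68 ± 0.09) and Ccl7 (-0.71 ± 0.09) and the dendritic cell product Ccl22 (-0.69 ± 0.10) fell. Ccl3, which encodes MIP-1 alpha, had 292, 272, 279 and 287 CPM with dexamethasone plus LPS, against 140, 145, 124 and 139 CPM with LPS. It went the other way in every library (log2 fold change 1.04 ± 0.05, adjusted p = 3.5e-22), as did Ccl4 (0.58 ± 0.08) and Ccl9 (0.36 ± 0.04). The exons of Ccl3 overlap an unnamed gene on the opposite strand, and counting ignored strand. Among 11 chemoattractant receptors 6 were lower, 2 higher and 3 not called, with Ccr1 at -0.66 ± 0.07 and the C5a receptor C5ar1 at 0.59 ± 0.04.

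NF-kappaB sites in these promoters were searched as GGGANNNTCC on both strands, where overlapping matches on opposite strands can mark the same site. The motif was in 1509 of 32851 windows (4.59%). It was found in 4 of the 8 CXC chemokine genes with a window, in 1 of 7 CC chemokine genes and in 3 of 12 cytokine genes. By window, the unit of the 4.59%, this was 4 of 8, 1 of 7 and 3 of 15 in the same order. Sites of genes that fell are shown because Cxcl1, Cxcl2 and Cxcl3 carry the same letters. Capitals mark the match, and the lines cover chr5:90891165-90891194 for Cxcl1, chr5:90903793-90903822 for Cxcl2, chr5:90786019-90786048 for Cxcl3 and chr5:30013061-30013090 for Il6, all on the plus strand, and chr5:92349029-92349058 on the minus strand for Cxcl10.
Cxcl1: ctgtactccGGGAATTTCCCtggcccggag
Cxcl2: ctgagctcaGGGAATTTCCCtggtccccgg
Cxcl3: agctgcgggGGGAATTTCCCcagcccgggc
Il6: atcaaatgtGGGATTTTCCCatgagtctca
Cxcl10: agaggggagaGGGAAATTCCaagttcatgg
The matches begin 71, 97, 73, 44 and 159 bases before the start of Cxcl1, Cxcl2, Cxcl3, Il6 and Cxcl10 in that order. Cxcl10, a ligand for T cells, fell by -0.52 ± 0.09. The Il1b window on chromosome 2 held no match.

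Several enzymes that make inflammatory mediators fell. Nos2, the inducible nitric oxide synthase, had 2083, 2318, 2433 and 2076 CPM with dexamethasone plus LPS, against 3755, 3422, 3697 and 3256 CPM with LPS. The 2 groups were apart (log2 fold change -0.67 ± 0.05, adjusted p = 1.21e-14). Arg1, which competes with Nos2 for arginine, had 134, 158, 172 and 166 CPM, against 276, 225, 298 and 212 CPM with LPS (log2 fold change -0.68 ± 0.10, adjusted p = 1.13e-07). So both arginine-consuming enzymes were lower. The arginine transporter Slc7a2 (-0.32 ± 0.04) and the recycling enzyme Ass1 (-0.33 ± 0.04) fell less, and the spermidine synthase gene Srm rose by 0.72 ± 0.08. Over the 12 genes of this list 5 were lower, 2 higher and 5 not called. Ptgs2, the prostaglandin-forming enzyme COX-2, fell by -0.68 ± 0.06. Its list of 14 prostaglandin and leukotriene genes was mixed, with 6 lower, 4 higher and 4 not called and a median of 0.02, and the prostaglandin synthases Hpgds (0.64 ± 0.06) and Ptges2 (0.53 ± 0.06) rose. Of 14 matrix metalloproteases and inhibitors 9 were lower, 4 higher and 1 not called, with Mmp12 (-0.69 ± 0.10), Mmp13 (-0.66 ± 0.07) and Timp1 (-0.79 ± 0.17) lower and Mmp19 (0.61 ± 0.06), which overlaps Tmem198b, higher. Among 14 secreted growth and angiogenic factors 8 were lower and 1 was higher. Inhba, a subunit of activin A, fell by -0.68 ± 0.06, Thbs1 by -0.64 ± 0.06 and the endothelial growth factor Vegfa by -0.67 ± 0.05, while the vasoconstrictor Edn1 rose by 3.78 ± 0.19.

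Every interferon-stimulated gene tested was lower. All 35 of 35 were called lower, beside 17.3% of all genes tested, and the median log2 fold change was -0.37. Rsad2, which encodes the antiviral protein viperin, had 367, 363, 394 and 372 CPM with dexamethasone plus LPS, against 589, 502, 629 and 551 CPM with LPS (log2 fold change -0.60 ± 0.06, adjusted p = 1.37e-11). Ifit3 had 156, 153, 151 and 142 CPM, against 227, 213, 238 and 245 CPM with LPS (log2 fold change -0.62 ± 0.06, adjusted p = 5.11e-12). Both were lower in each library. Ifi205, Mx1 and Mx2 fell by -0.63 ± 0.06, -0.61 ± 0.08 and -0.61 ± 0.08. Isg15, the ubiquitin-like modifier, fell by -0.41 ± 0.06. Of 16 genes of MHC class I presentation and the immunoproteasome 15 were lower and none higher (median -0.22), among them the peptide transporter Tap1 (-0.45 ± 0.04) and H2-Q7 (-0.53 ± 0.08), whose reads can be shared with near-identical H2-Q copies. In the list of MHC class II and T cell co-stimulation genes, 12 in all, 8 were lower, 2 higher and 2 not called. The class II transactivator Ciita had 10.3, 8.50, 9.21 and 9.53 CPM, against 12.5, 11.3, 14.4 and 15.7 CPM with LPS (log2 fold change -0.52 ± 0.11, adjusted p = 0.000155). Its groups were separate, and its exons overlap those of Dexi on the opposite strand. The invariant chain Cd74 (-0.45 ± 0.05) and H2-Eb1 (-0.52 ± 0.06) fell, and the T cell ligands Cd80 (0.62 ± 0.13) and Icosl (0.37 ± 0.04) rose.

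The interferon-stimulated response element, searched as GAAANNGAAA on both strands, was in 1131 of 32851 promoter windows (3.44%). Of the 33 windows of interferon-stimulated genes 18 (54.5%) held it, in 17 of the 27 genes with a window. The examples below show it in tandem in Isg15 (chr4:156200871-156200900, minus strand) and Oas1a (chr5:120907523-120907552, minus strand), where adjacent matches share bases, and in Ifit1 (chr19:34640785-34640814, plus strand) and Ifit3 (chr19:34583363-34583392, plus strand), where it lies on the other strand. Capitals mark the matches.
Isg15: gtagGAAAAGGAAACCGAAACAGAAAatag
Oas1a: ttctcggGAAATGGAAACTGAAAatctact
Ifit1: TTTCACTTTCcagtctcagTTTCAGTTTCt
Ifit3: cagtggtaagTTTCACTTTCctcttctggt
A match is a description of the letters and not of a factor bound there.

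Feedback regulators of the LPS response were mixed. Of 23 NF-kappaB components and feedback genes 10 were lower, 3 higher and 10 not called, with a median of -0.06. The repressor Atf3 (-0.64 ± 0.05), the cytokine signalling inhibitor Socs1 (-0.46 ± 0.07) and the mRNA-destabilising protein gene Zfp36 (-0.41 ± 0.07) fell. The deubiquitinase gene Tnfaip3, which restrains NF-kappaB, had 407, 406, 425 and 422 CPM with dexamethasone plus LPS, against 356, 328, 333 and 327 CPM with LPS. It was higher in each library (log2 fold change 0.30 ± 0.04, adjusted p = 2.68e-09), as was Irak3, an inhibitor of Toll-like receptor signalling (0.20 ± 0.04), whose exons overlap Tmbim4. Maff, a small Maf factor, rose by 0.56 ± 0.07. Among 17 Toll-like receptors and co-receptors 7 were lower, 2 higher and 8 not called. The LPS receptor gene Tlr4 fell by -0.19 ± 0.04, and Tlr2 and Tlr7 rose by 0.78 ± 0.05 and 0.45 ± 0.05. Pycard, the adaptor of the inflammasome, rose by 1.12 ± 0.08, and Casp1, the protease that processes interleukin-1 beta, fell by -0.30 ± 0.04.

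**Figure D2:**
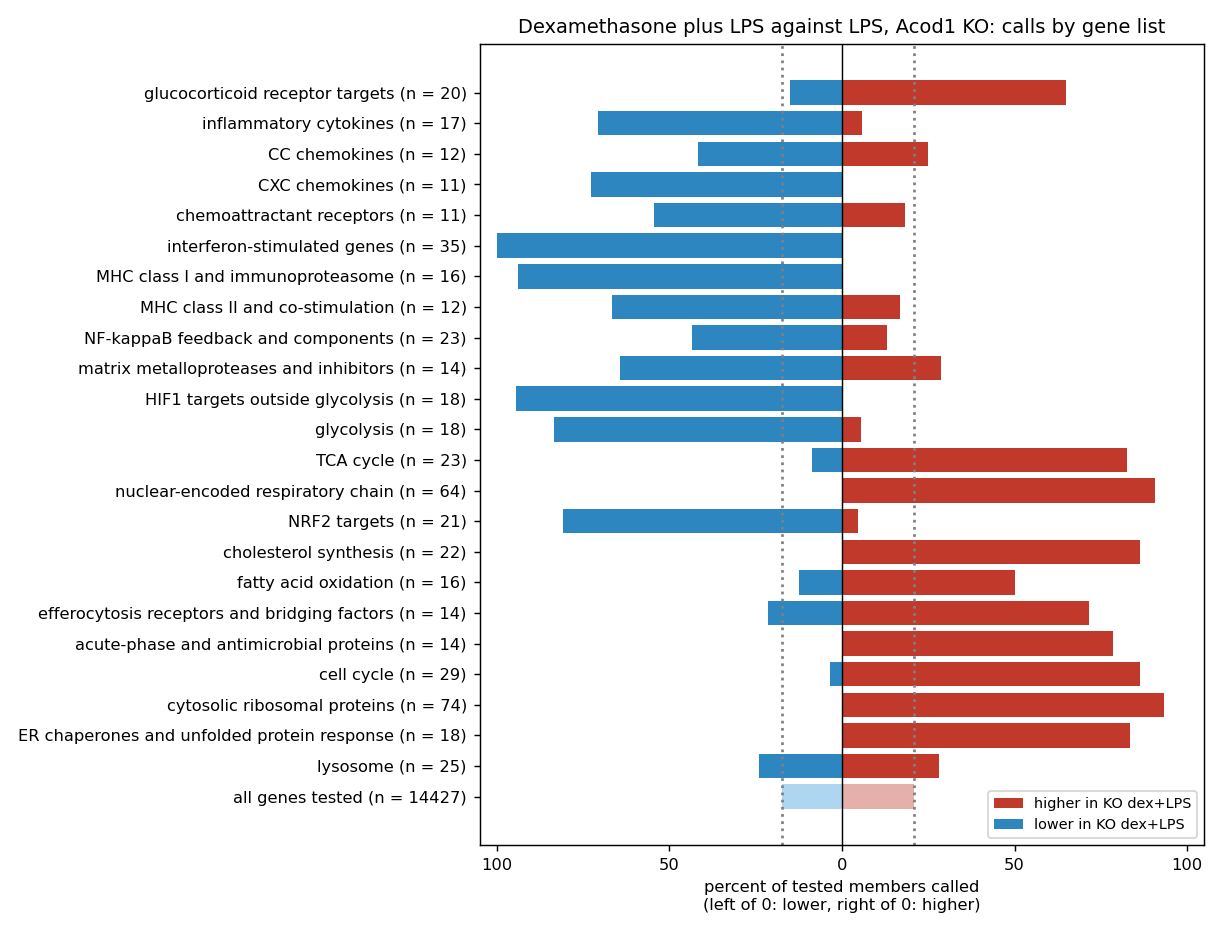
Percent of tested members of each gene list called higher (right of 0) or lower (left of 0) in KO dexamethasone plus LPS against KO LPS at an adjusted p under 0.05, with the number tested in parentheses. The bottom bar and the dotted lines give all 14427 genes, 20.8% higher and 17.3% lower, and the interferon-stimulated genes lie at 35 of 35 lower.

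Glycolysis genes fell and genes of the TCA cycle and the respiratory chain rose. Of 18 glycolysis genes 15 were lower, 1 higher and 2 not called, with a median log2 fold change of -0.42. The glucose transporter gene Slc2a1 had 704, 774, 751 and 705 CPM with dexamethasone plus LPS, against 1121, 1087, 1133 and 1015 CPM with LPS. No library overlapped (log2 fold change -0.57 ± 0.05, adjusted p = 7.18e-15). The lactate exporter Slc16a3 fell by -0.56 ± 0.04, Pgk1 by -0.47 ± 0.03, lactate dehydrogenase Ldha by -0.46 ± 0.03 and hexokinase Hk2 by -0.43 ± 0.04, while the neuronal-type enolase Eno2 rose by 0.29 ± 0.07. Of 18 targets of the hypoxia factor HIF1 outside glycolysis 17 were lower and none was higher, with a median of -0.56. Ndrg1 (-0.71 ± 0.05) and Egln3 (-0.65 ± 0.06), a prolyl hydroxylase that marks HIF1 for destruction, were among them. Pdk1, the kinase that blocks pyruvate dehydrogenase, fell by -0.43 ± 0.04, and Pdha1, a subunit of that enzyme, rose by 0.53 ± 0.05.

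Of 23 TCA cycle genes 19 were higher, 2 lower and 2 not called, with a median of 0.25. Idh3a, a subunit of the NAD-dependent isocitrate dehydrogenase, had 57.3, 53.2, 59.8 and 61.7 CPM with dexamethasone plus LPS, against 26.3, 29.1, 25.5 and 26.8 CPM with LPS. It was higher in each library (log2 fold change 1.10 ± 0.05, adjusted p = 1.85e-22). Mdh1 rose by 0.73 ± 0.05, the succinate dehydrogenase subunit Sdha by 0.47 ± 0.03 and Ogdh by 0.46 ± 0.04, and the malic enzyme Me2 fell by -0.40 ± 0.05. In the list of 10 genes of itaconate synthesis and breakdown 3 were higher, 1, Acod1, was lower and 6 were not called, and the dicarboxylate carrier Slc25a10 rose by 0.94 ± 0.04. Of 64 nuclear genes of the respiratory chain 58 were higher and none lower (median 0.34), for example Ndufs8 of complex I (0.64 ± 0.07) and Cox5b of complex IV (0.61 ± 0.07). Of 11 mitochondrially encoded genes 6 were higher and none lower, led by mt-Nd1 (0.55 ± 0.06) and mt-Nd2 (0.52 ± 0.06). Mitochondrially encoded genes took 0.348% ± 0.0191 of counts with dexamethasone plus LPS and 0.280% ± 0.0326 with LPS (SD, n = 4 each, exact two-sided permutation test, p = 0.0571). KO LPS replicate 4 stood apart at 0.329%, with the other KO LPS libraries at 0.261% to 0.267%.

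**Figure D3:**
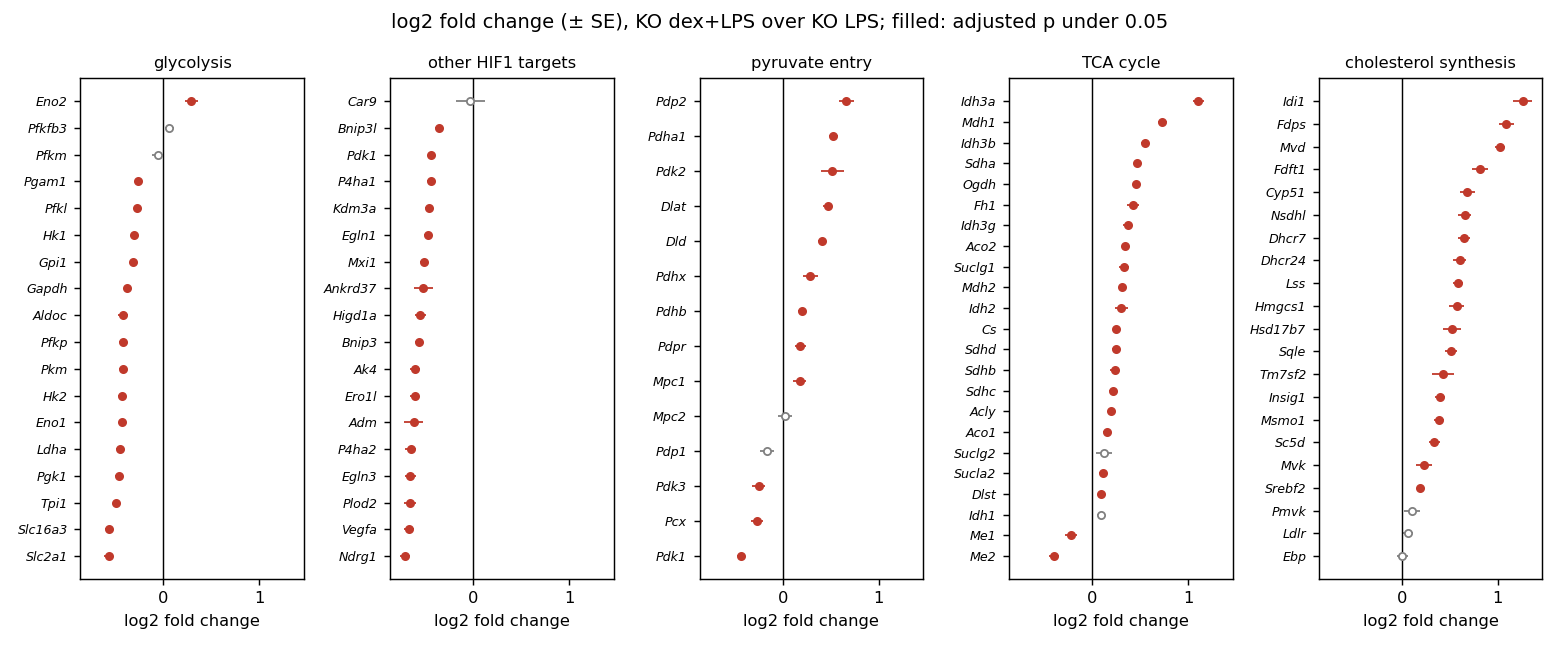
log2 fold change (± SE, horizontal axis) of tested genes of 5 metabolic lists, KO dexamethasone plus LPS over KO LPS, where filled points passed an adjusted p under 0.05. Glycolysis and other HIF1 targets lie left of 0, with Eno2 the called exception, and most TCA cycle and cholesterol synthesis genes lie right of 0.

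Antioxidant genes fell and lipid synthesis genes rose. Of 21 targets of the oxidative stress factor NRF2, which itaconate is known to activate, 17 were lower, 1 higher and 3 not called, with a median of -0.25. Hmox1, which breaks down haem, had 4432, 4833, 4797 and 4327 CPM with dexamethasone plus LPS, against 7319, 7078, 7584 and 6756 CPM with LPS. The groups were well apart (log2 fold change -0.64 ± 0.04, adjusted p = 2.38e-20). The peroxiredoxin gene Prdx1 fell by -0.59 ± 0.04 and the thioredoxin reductase gene Txnrd1 by -0.47 ± 0.03, while Gsta3 rose by 0.51 ± 0.09. Of 13 iron handling genes 6 were lower, among them the iron exporter Slc40a1 (-0.62 ± 0.08), and 4 higher, among them the ferroxidase ceruloplasmin, Cp (1.16 ± 0.05), whose exons overlap Hps3 on the opposite strand. The serine synthesis gene Phgdh rose by 1.94 ± 0.10 and Trib3, a marker of the integrated stress response, fell by -0.55 ± 0.08. Of 22 cholesterol synthesis genes 19 were higher and none lower, with a median of 0.52. Idi1 (1.26 ± 0.10), Fdps (1.09 ± 0.08) and Mvd (1.02 ± 0.05) rose most. The desaturase gene Scd1 rose by 0.90 ± 0.09 and the cholesterol exporter gene Abca1 fell by -0.49 ± 0.05. Of 16 fatty acid oxidation genes 8 were higher, led by Acaa2 (0.78 ± 0.07), 2 lower and 6 not called.

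Receptors for apoptotic cells and acute-phase proteins rose. Mertk, the receptor tyrosine kinase for apoptotic cells, had 40.7, 39.7, 42.0 and 48.2 CPM with dexamethasone plus LPS, against 7.45, 8.41, 7.55 and 7.47 CPM with LPS. The groups were far apart (log2 fold change 2.46 ± 0.08, adjusted p = 5.34e-30). Cd163, the haemoglobin scavenger receptor and a marker of glucocorticoid-treated macrophages, had 29.99, 27.87, 33.45 and 35.09 CPM, against 5.10, 6.34, 6.29 and 8.13 CPM with LPS, a rise of 2.29 ± 0.10 without overlap. Of 14 efferocytosis genes 10 were higher, 3 lower and 1 not called, with C1qa (0.98 ± 0.07) and Axl (0.74 ± 0.05) higher and Lrp1 (-0.44 ± 0.07) lower. The scavenger receptors Cd36 and Msr1 fell by -0.61 ± 0.06 and -0.55 ± 0.04. Of 14 acute-phase and antimicrobial proteins 11 were higher and none lower, with a median of 1.01. The haemoglobin-binding protein haptoglobin, Hp, had 3569, 3309, 3605 and 4019 CPM, against 670, 773, 680 and 772 CPM with LPS (log2 fold change 2.32 ± 0.05, adjusted p = 1.14e-38). The pattern recognition protein Ptx3 rose by 6.69 ± 0.15 and was near 0 with LPS alone.

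Cell cycle and ribosomal protein genes also rose. Of 29 cell cycle genes 25 were higher, 1 lower and 3 not called, with a median log2 fold change of 1.25. Top2a, the DNA topoisomerase of dividing cells, had 17.3, 16.9, 16.4 and 20.7 CPM with dexamethasone plus LPS, against 4.37, 3.52, 4.62 and 4.10 CPM with LPS (log2 fold change 2.10 ± 0.11, adjusted p = 3.97e-21). Rrm2 rose by 2.85 ± 0.26 and the mitotic cyclin Ccnb1 by 1.99 ± 0.14, while the replication clamp Pcna fell by -0.25 ± 0.05. In bulk RNA a change in the number of cells of a kind and a change in RNA per cell cannot be told apart. All 74 cytosolic ribosomal protein genes listed passed the filter, and 69 were higher and none lower, with a median of 0.30. Rpl3 and Rpl10a rose by 1.11 ± 0.04 and 1.06 ± 0.05. The share of counts from genes with a ribosomal protein symbol, a set picked by name and not from this list, was also compared. It was 2.01% ± 0.0407 with dexamethasone plus LPS and 1.6% ± 0.0944 with LPS (SD, n = 4 each, exact two-sided permutation test, p = 0.0286, the smallest that 4 against 4 allow). Of 18 endoplasmic reticulum chaperone genes 15 were higher and none lower, led by Herpud1 (1.53 ± 0.07) and Dnajc3 (0.62 ± 0.04). The mTOR inhibitor gene Deptor rose by 2.01 ± 0.10. Of 20 macrophage transcription factors 10 were lower and 4 higher, with Egr2 (-0.64 ± 0.12) and Bhlhe40 (-0.49 ± 0.04) lower and Klf2 (0.50 ± 0.09) and Cebpa (0.43 ± 0.07) higher.

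The size of the changes was lopsided. Of 14427 genes 5499 were called, 3000 higher and 2499 lower. A change of at least 2-fold was called in 511 genes that were higher and in 54 that were lower, one of at least 4-fold in 204 and 7, and one of at least 32-fold in 37 and 0. The largest rises, with a level minimum of 5 CPM in either group's mean, were mostly of genes with few counts under LPS alone, Tns1 having more. Besides Zbtb16, Sult1a1, Ptx3 and Tns1 these included the mitotic ubiquitin enzyme gene Ube2c (ratio of counts 398.5, 95% interval 71.2 to 15800), the dynein heavy chain gene Dnah12 (log2 fold change 8.08 ± 0.28), AC125101.1 (7.52 ± 0.28), the Wnt receptor gene Fzd4 (6.70 ± 0.27) and Atp8b3 (4.99 ± 0.26). The 10 largest falls under the same level minimum reached no further than -0.93 ± 0.20. They were Gstt4, Prr15, Gm15283, Sirpb1b, the glutamate transporter gene Slc1a2, Timp1, the aryl hydrocarbon receptor gene Ahr, the plasminogen activator inhibitor gene Serpinb2, Klhl3 and the histamine-forming enzyme gene Hdc. Ahr had 14.6, 17.31, 14.04 and 13.72 CPM with dexamethasone plus LPS, against 28.02, 23.12, 25.28 and 26.8 CPM with LPS (log2 fold change -0.79 ± 0.08), and Hdc ended the 10 at -0.77 ± 0.14. The exons of Gm15283 overlap those of Hif1a on the opposite strand.

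The effect of dexamethasone under LPS was smaller in KO than in WT cells for most genes in which it differed. Il1b fell to 4362 ± 439 CPM in KO dexamethasone plus LPS cells, against 7072 ± 512 CPM in KO LPS cells, and to 42.3 ± 5.01 CPM in WT cells with both agents, against 8469 ± 670 CPM in WT cells with LPS (SD, n = 4 each). The KO minus WT difference of the log2 fold changes was 6.95 ± 0.09 (adjusted p = 8.5e-47). The difference was 5.34 ± 0.08 for Nos2 and 2.87 ± 0.12 for Il6, -1.22 ± 0.11 for Fkbp5, -0.33 ± 0.06 for Nr3c1 and 0.90 ± 0.06 for Acod1. It was called in 6552 genes (45.4%), positive in 3446 (23.9%) and negative in 3106 (21.5%), and with RLE size factors the negative side was the larger, at 3437 against 3137 positive. In 6033 of them the effect had the same sign in both genotypes and was smaller in KO, in 6 it was larger in KO, and in 513 the signs differed. Of the 5499 genes called in KO 97% were also called in WT, beside 69.2% of all 14427 genes. Of the WT calls 53.4% were called in KO, beside 38.1% of all genes. Of the 5332 genes called in both genotypes 5328 moved the same way. Clec4a2, a C-type lectin gene, was one of the other 4. It fell in KO by -0.25 ± 0.05 and rose in WT by 0.16 on the log2 scale.

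**Figure D4:**
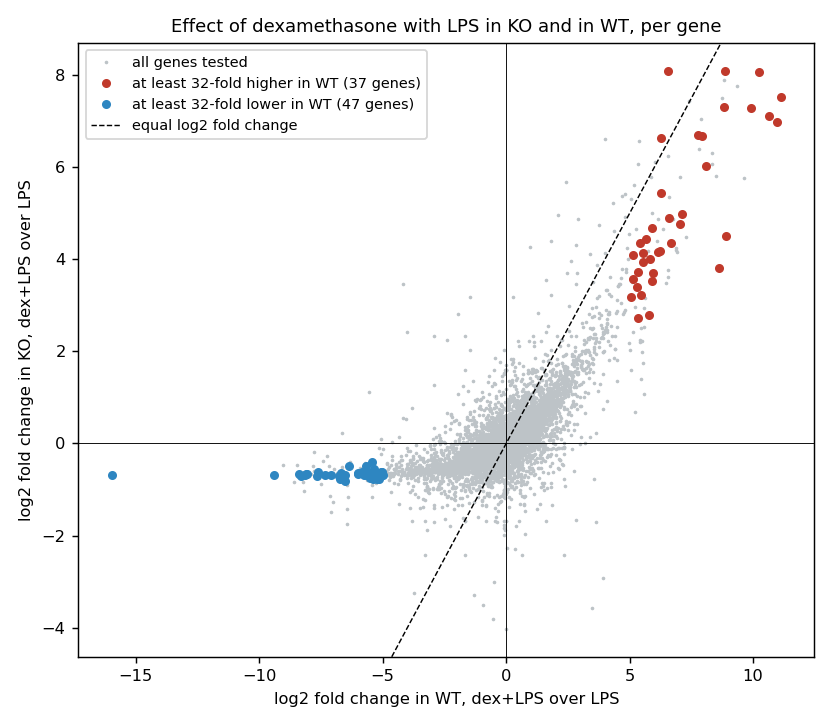
log2 fold change of dexamethasone plus LPS over LPS in KO (vertical axis) and in WT (horizontal axis) for the 14427 genes, with 37 genes at least 32-fold higher and 47 at least 32-fold lower in WT marked and the dashed line at equal effects. Marked genes met the level minima given in the text. The marked genes that fell in WT form a flat band in KO, where 57.2% to 75.6% of the LPS level was left, and the leftmost point, Arg1, had 0 counts in WT with both agents.

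By list, the difference was positive in 35 of 35 interferon-stimulated genes, 13 of 17 cytokines, 15 of 18 glycolysis genes and 17 of 18 other HIF1 targets, with none negative in these lists. It was negative in 20 of 23 TCA cycle genes, 19 of 22 cholesterol synthesis genes, 23 of 29 cell cycle genes and 62 of 74 ribosomal protein genes. The medians of the KO effect, -0.37 for interferon-stimulated genes, -0.52 for cytokines and -0.56 for other HIF1 targets, stood beside -1.64, -1.98 and -3.45 in WT. The 6 largest positive differences among genes with at least 5 CPM were in Arg1, the macrophage elastase gene Mmp12, Mgarp, Ccl7, Inhba and Flrt3, from 7.44 ± 0.25 in Flrt3 to 8.72 ± 0.21 in Mmp12 for the genes with counts in all 4 groups. Arg1 had 0 counts in WT with both agents, so its fitted value of 15.3 depends on the prior count and is no bound. The 6 largest negative differences were in 1700011B04Rik (-4.81 ± 0.94), Jaml, Hhipl1, AC125101.1, the cyclin gene Ccna2 and Knstrn (-2.69 ± 0.44), all under 1 CPM with LPS alone in KO. Hhipl1 had 0 counts in WT with LPS, so its difference depends on the prior count too, and the exons of Ccna2 overlap those of Exosc9 on the opposite strand. Lane 3 held all WT libraries and lane 2 the 8 compared KO libraries, so genotype and lane cannot be told apart in the difference, whereas the KO comparison lies within lane 2.

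On the linear scale the KO effect was a similar part of the WT effect in genes of different fold change. Gene sets were chosen by their change and level in WT libraries, with the level minimum named below added in KO LPS cells for the first set. In 47 genes at least 32-fold lower in WT and with at least 5 CPM in KO LPS cells, the level in KO dexamethasone plus LPS cells was a median 62.8% of that in KO LPS cells (quartiles 61.9% and 64.1%, range 57.2% to 75.6%). By library the median was 59.8%, 62.8%, 69.2% and 60.4%. In 37 genes at least 32-fold higher in WT, the level in KO dexamethasone plus LPS cells was a median 38% of that in WT cells with both agents (quartiles 34.3% and 47.4%, range 27.9% to 73.4%), and by library 38.3%, 35.1%, 37.8% and 44.5%. The change in CPM in KO was a median 34% of the change in WT among the 566 genes that were 2- to 4-fold lower in WT, (quartiles 29.5% and 39%), and 30.8% among all 48 that were at least 32-fold lower (quartiles 24.9% and 34.9%). It was 35.4% among the 585 genes 2- to 4-fold higher in WT (quartiles 30.3% and 39.5%) and 37.7% among the 37 at least 32-fold higher (quartiles 33.1% and 45.4%). None of the genes that changed by at least 2-fold in WT, under the same WT call and level minimum, was called in the opposite direction in KO. Among lists with at least 10 such genes the median ran from 28.7% in cytokines to 38.2% in glucocorticoid receptor targets. Some smaller lists lay further out, with medians of 22.5% for 7 CXC chemokines, 25.3% for 5 CC chemokines and 41.9% for 6 cytosolic ribosomal proteins, and single list members ran from 13.5% for the lysosomal protease gene Ctsk to 86.7% for Axl. The percentage divides by the WT change, so it also carries any genotype difference in the level with LPS alone. Cxcl3, at 22.5%, had 707 CPM with LPS in KO and 1222 CPM in WT, and kept 61.5% of its KO LPS level. Ccl7, at 20.2%, had 171 and 329 CPM and kept 61.3%. Ccl22, at 41.5%, had 48.1 and 44.7 CPM and kept 62.2%. In bulk RNA a partial change in every cell and a full change in part of the cells or of the RNA cannot be told apart. Without LPS, Fkbp5 was at 836 ± 24.6 CPM in KO cells with dexamethasone and 878 ± 12.8 CPM in WT cells with dexamethasone (SD, n = 4 each), whereas with both agents it was at 262 ± 29.2 CPM in KO and 681 ± 12.1 CPM in WT cells. Of the KO libraries with dexamethasone alone, replicates 1 to 3 were in lane 3, as were all WT libraries, and replicate 4 was in lane 2. The KO libraries with both agents were all in lane 2, so genotype and lane cannot be told apart in that pair.

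**Figure D5:**
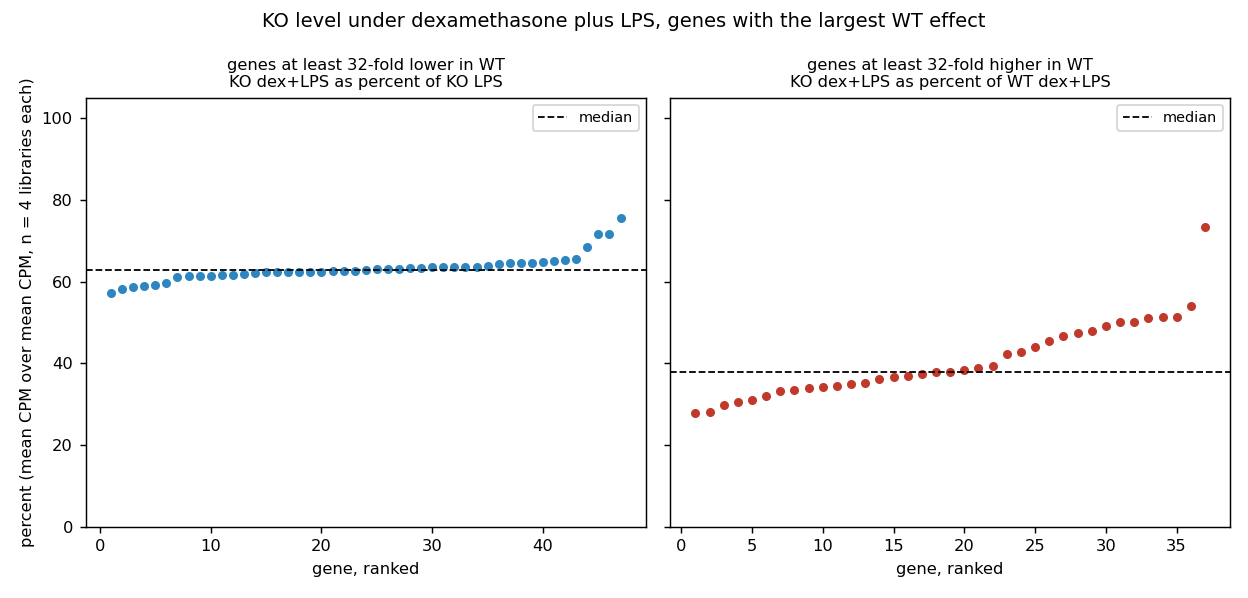
Left, level in KO dexamethasone plus LPS cells as a percent of KO LPS cells for the 47 genes at least 32-fold lower in WT. Right, level in KO dexamethasone plus LPS cells as a percent of WT cells with both agents for the 37 genes at least 32-fold higher in WT. Points are genes in rank order from means of 4 libraries, and dashed lines are the medians of 62.8% and 38%. All genes shown met the level minima given in the text.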

How the data were processed

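RNA of 32 mouse macrophage libraries was sequenced, 4 in each of 8 groups of genotype and treatment. The authors deposited a table of read counts per gene, made with featureCounts 2.0.0 on GENCODE vM32 exons, paired and without strand, per the file headers. The submitters' processing notes name STAR, without a version, and GRCm38 (mm10), so the builds differ and no coordinate is taken from the table. Of 56953 genes, 4924 had no symbol and held 0.846% of counts.

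Counts were tested with edgeR 4.0.16 in R 4.3.3 (filterByExpr, TMM, quasi-likelihood test, edgeR's default prior count) in 1 fit of 8 group means over all 32 libraries, which left 24 residual degrees of freedom. The principal components and the deviations of same-numbered libraries used log CPM with a prior count of 2. SEs were computed from the fold change and the F statistic. CPM use TMM factors, except marker sums and shares of counts, which use library totals. The fit was tested on simulated data in which few genes changed, equally up and down. That test does not cover changes as broad as those of these data. Replicates differed beyond sampling noise, with a chi-square per degree of freedom of 2.22 to 4.85. Intervals of count ratios cover counting error only.

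Members and gene lists were chosen with earlier results of these data known. The text names Acod1, Nr3c1, Il1b, Il6, Nos2 and Fkbp5, up to 5 called members of each list with the largest change and up to 2 against its direction, the 10 largest rises and falls, and the 6 largest differences of each sign, all with at least 5 CPM, except a few genes that are not reported here. A few more (Tsc22d3, Klf9, Sgk1, Mt1, Tnf, Il10, Cxcl10, Isg15, Tlr4, Hk2, Ccl9, Ctsk and Clec4a2) and the sequences other than Fkbp5 were chosen after their values or motif matches were seen. The linear percentages were also added after seeing the data. Alternatives were other normalizations, no filter, a threshold of 0.01, DESeq2 1.42.0, fits of only the compared groups, the replicate number as a block, and leaving out 1 library at a time.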

Additional observations from a re-analysis of the deposited data

Results flagged for a closer look

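A library stood apart from the other 3 of its group, by the gap to its nearest neighbour over the whole range, in 15 of the 318 groups of values looked at, and chance alone gives about 1 in 20. Among KO dexamethasone plus LPS libraries, replicate 3 was high for Egr2 (9.93 CPM, others 6.17 to 6.66) and low for Socs1 (39.2 CPM, others 44.5 to 45.4). In the same group replicate 4 was high for Klf9 (61.3 CPM, others 48.2 to 49.9) and Dnah12 (23.5 CPM, others 18.1 to 18.7) and low for Msr1 (703 CPM, others 778 to 789).

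Among KO LPS libraries, replicate 3 was high for Me2 (135 CPM, others 121 to 122), Gstt4 (6.45 CPM, others 5.05 to 5.24), Ccna2 (1.05 CPM, others 0.241 to 0.312) and Ube2c (0.0524 CPM, others 0), and low for Zbtb16 (0 CPM, others 0.0504 to 0.0602). Replicate 4 of that group was high for Isg15 (331 CPM, others 317 to 319) and for the mitochondrial share of counts (0.329%, others 0.261% to 0.267%), and low for Atp8b3 (0.12 CPM, others 0.201 to 0.21). Replicate 2 was high for Mertk (8.41 CPM, others 7.45 to 7.55) and replicate 1 for Jaml (0.365 CPM, others 0 to 0.0602). The values of Zbtb16, Ube2c, Atp8b3, Jaml and Ccna2 rest on few counts.

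The effect of dexamethasone under LPS differed between KO and WT by edgeR's test of the difference in 6552 genes. The KO minus WT difference in log2 fold change was 0.899 for Acod1, -0.33 for Nr3c1, 6.95 for Il1b, 2.87 for Il6, 5.34 for Nos2 and -1.22 for Fkbp5. The largest positive values were 15.3 for Arg1, 8.72 for Mmp12, 7.74 for Mgarp, 7.58 for Ccl7, 7.47 for Inhba and 7.44 for Flrt3. The largest negative values were -4.81 for 1700011B04Rik, -4.39 for Jaml, -3.98 for Hhipl1, -3.6 for AC125101.1, -3 for Ccna2 and -2.69 for Knstrn. Genotype and lane cannot be told apart in these differences.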

How the results depend on the processing

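The counts of called genes over all genes stayed within 1.5 times under each alternative run. For KO dexamethasone plus LPS against KO LPS they were 4194 at an adjusted p under 0.01, 5669 with RLE size factors, 5487 without normalization, 5005 without the filter on low counts, 5468 with the compared groups alone, 5737 with DESeq2 and 4862 to 5297 with 1 library left out, beside 5499. The larger side of the split changed with the scaling, to 2664 higher and 3005 lower with RLE size factors and 2697 and 3040 with DESeq2. With the replicate block 5539 genes were called for the KO comparison and 6575 for the difference, and same-numbered libraries did not deviate together (r = -0.0287 to 0.0256), so they share only a number. The difference between genotypes was called in 5143 to 6706 genes over the other settings, with 3137 positive and 3437 negative under RLE size factors, 2901 and 3805 without normalization and 3148 and 3487 with DESeq2. Of the counts by list over all alternatives, 1596 stayed within 1.5 times and 54 did not, all of small counts: the receptor cofactors lower (2, or 4 with RLE size factors or DESeq2), itaconate genes lower (1, or 2), Toll-like receptors higher (2, or 4), prostaglandin genes higher (4, or 2), growth factors higher (1, or 2), fatty acid oxidation lower (2, or 1) and cytokines higher (1, or 0) are those the text prints. The medians of 62.8% left and 38% reached ran from 60.8% to 64.8% and from 36.9% to 40.0%. Of the genes given with values in the text, Csf3 lost its call. No fold change reversed. Depth limits genes with a few counts with LPS alone.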
